A study of Mus musculus with 4 samples.

Results

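The joins described here connect a DNA break near the 5′ end of the Sμ switch region to a second site inside Sμ. Their orientation is the one that deletes the DNA in between when the second site lies downstream of the break. They were chosen as prey coordinates on the minus strand of mouse chromosome 12 at or above chr12:114662305 (mm9), within the list of Sμ joins deposited for each library, and are called body joins below. There were 3558 of them among 18731 junctions in 4 libraries. The Wildtype library held 1749 of 9435 junctions, CtIP_AA 689 of 3220, CtIP_KO 424 of 2555 and XRCC4_KO 696 of 3521. The border is the lower 2.5% point of the Wildtype joins, so the Wildtype share beyond it is set by the choice.

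Class switch recombination replaces the IgM constant region with another by joining breaks in Sμ to breaks in a downstream switch region, and the DNA between them is lost. The deaminase AID starts these breaks, preferring AGCT and related motifs, which switch regions repeat many times. Breaks in Sμ are also joined to other breaks in Sμ, which shortens the region without changing the antibody class. Because IgH lies on the minus strand, lower coordinates are farther downstream, and a bait reading toward the constant genes meets a deletional partner on the minus strand. A coordinate alone does not tell an internal deletion of Sμ from a bait end that lost more DNA before it was joined.

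The cells were CD43- splenic B cells of mice with preassembled IgH and IgK loci, kept in culture over 4 days in IL-4 (20 ng/ml) plus anti-CD40 (1 ng/ml). The strain label is BL6 for each library and the growth protocol gives 129Sv, so the strain is not settled. Joins were read by high-throughput genome-wide translocation sequencing from a primer in Sμ. The Wildtype label gives CD21Cre+, CtIP +/C and XRCC4 +/C, where CD21Cre is a Cre active in mature B cells and C is read here as the conditional allele it deletes. CtIP_AA is CtIP T855A/T855A, with no Cre and no XRCC4 allele named. The CtIP_KO label gives CD21Cre+, CtIP C/- and XRCC4 +/C, and the XRCC4_KO label gives CD21Cre+, CtIP +/- and XRCC4 C/-. Every Cre library therefore carries at least 1 conditional or deleted allele of both genes, Wildtype included. CtIP starts the resection of broken DNA ends. XRCC4 works with DNA ligase IV to seal ends in classical end joining. Each genotype is 1 library with no replicate, and the labels give no number of mice behind it, so every test below compares libraries by their junction counts and not genotypes, and every interval covers counting error only. The data are genomic joins, so the B-cell identity was not checked against expressed markers.

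The bait is shown first, because every distance below is counted from it. The nested primer starts at chr12:114664909 and reads toward lower coordinates. The bait below is the majority letter at each base of 3709 blunt reads, over chr12:114664807-114664909 on the minus strand, and the capitals mark its AGCT motifs.
linear amplification primer: cagacctgggaatgtatggt
nested primer: cacacaaagactctggacctc
bait from the nested primer: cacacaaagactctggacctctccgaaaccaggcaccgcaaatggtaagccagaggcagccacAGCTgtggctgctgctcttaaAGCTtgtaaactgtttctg
Of these 103 letters, 84 could be set against mm9 letters recovered from the deposited junction tables, and 84 were equal.

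The prey side changes along the region, and 3 stretches of 100 bases show how. They are mm9 letters of the minus strand, recovered from the deposited letters around joins, with AGCT in capitals. The first lies 109 to 208 bp from the primer start at chr12:114664701-114664800, the second at chr12:114664110-114664209, and the third holds the densest cluster of joins, at chr12:114663310-114663409.
near the bait: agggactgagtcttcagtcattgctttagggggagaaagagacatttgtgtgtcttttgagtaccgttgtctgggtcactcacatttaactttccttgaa
between: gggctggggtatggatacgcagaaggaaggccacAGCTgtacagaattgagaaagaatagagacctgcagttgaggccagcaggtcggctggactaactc
densest stretch: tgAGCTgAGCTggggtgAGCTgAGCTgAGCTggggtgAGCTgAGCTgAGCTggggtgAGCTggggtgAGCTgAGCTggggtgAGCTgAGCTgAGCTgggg
The near stretch holds 0 AGCT, the middle one 1 and the densest one 14, as runs of GAGCT units broken by GGGGT. In Wildtype these stretches took 80, 50 and 247 joins. CtIP_AA had 42, 13 and 79 joins there, CtIP_KO 22, 12 and 62, and XRCC4_KO 38, 17 and 94. The order of the 3 stretches was the same in every library. Read bases of blunt preys aligned without gaps were also set against the recovered mm9 letters of the body. The share equal was 97.6% in Wildtype (234 alignments), 97.2% in XRCC4_KO (53), 96.0% in CtIP_AA (92) and 87.4% in CtIP_KO (63). What lowered the CtIP_KO share, whether base changes or the placement of preys in the repeat, was not tested.

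Body joins lay mostly 1000 to 2500 bp from the primer start. The median distance was 1524 bp in Wildtype. Medians in the mutants were 1507.5 bp (XRCC4_KO), 1520 bp (CtIP_KO) and 1565 bp (CtIP_AA). Between 1000 and 2500 bp lay 77.3% of the Wildtype joins downstream of the primer (95% Wilson interval 75.3 to 79.3). CtIP_AA had 78.2% (74.9 to 81.1), CtIP_KO had 73.0% (68.5 to 77.1) and XRCC4_KO had 72.3% (68.8 to 75.5). Few body joins lay upstream of the primer: 51 for Wildtype, 10 for XRCC4_KO, 13 for CtIP_KO and 7 for CtIP_AA. These upstream joins have the same orientation but are not simple deletions between bait and prey. They were kept in the counts of body joins, of orientation and of windows below.

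**Figure D1:**
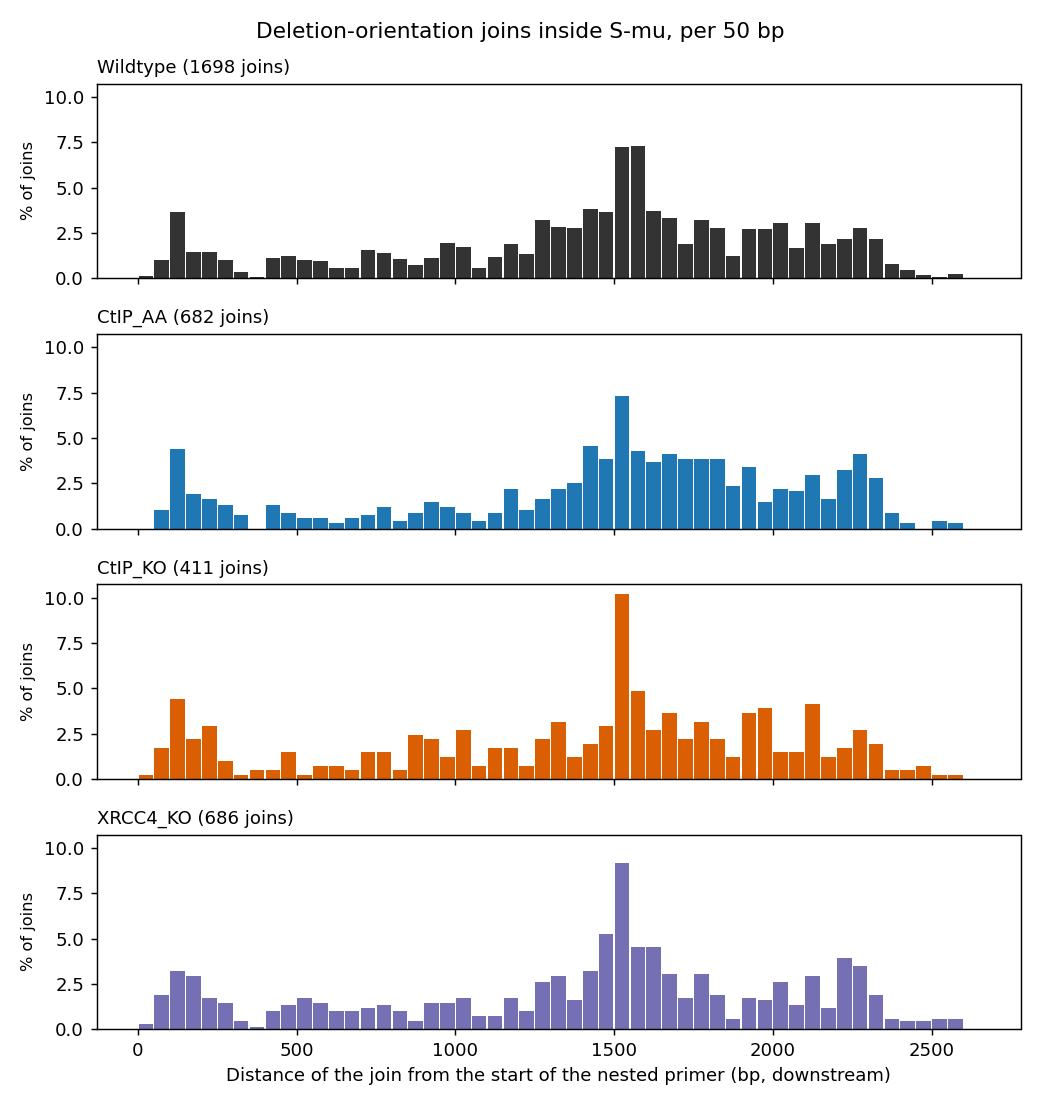
Share of the joins downstream of the primer in each 50 bp of distance from the start of the nested primer (x axis, bp; y axis, percent of the library's joins), 1 panel per library. The fullest bin is at 1500 to 1549 bp in the 3 mutants and at 1550 to 1599 bp in Wildtype, by 124 joins to 123, and all 4 libraries have a smaller rise at 100 to 149 bp and few joins near 300 to 400 bp.

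The zone from 1500 to 2000 bp was the fullest in each library. It took 36.1% of the Wildtype joins (33.9 to 38.4). The share was 31.9% (28.5 to 35.5) for XRCC4_KO, 37.7% (33.2 to 42.5) for CtIP_KO and 38.0% (34.4 to 41.7) for CtIP_AA. The first 500 bp took 11.5% in Wildtype, 14.4% in XRCC4_KO, 15.1% in CtIP_KO and 13.2% in CtIP_AA. From 2500 bp to the border the joins thinned out, to 5 joins in Wildtype, 8 in XRCC4_KO, 2 in CtIP_KO and 5 in CtIP_AA. For Wildtype, CtIP_AA, CtIP_KO and XRCC4_KO in turn, the nearest coordinates inside were chr12:114662313, 114662330, 114662351 and 114662310, and the nearest outside were 114662267, 114662301, 114662217 and 114662281. Below the border lay 133 minus-strand Sμ joins of XRCC4_KO, 45 of Wildtype, 16 of CtIP_AA and 12 of CtIP_KO. The XRCC4_KO joins left out by the border make up 16.0% of its minus-strand Sμ joins, at a median of 1080 bp below it.

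There are 2 AflII sites in the body, with their first base 103 and 398 bp from the primer start, at chr12:114664801-114664806 and chr12:114664506-114664511. The library protocol cuts with AflII to remove unrearranged DNA. In the 50 bp before the first site Wildtype had 17 joins and in the 50 bp after it 67. The same pair was 9 and 30 in CtIP_AA, 7 and 17 in CtIP_KO and 14 and 25 in XRCC4_KO. Between 300 and 399 bp, just before the second site, Wildtype had 7 joins, against 40 between 400 and 499 bp. These counts were 5 and 15 in CtIP_AA, 3 and 8 in CtIP_KO and 4 and 16 in XRCC4_KO. Each library thus had fewer joins in the stretch just before a site than in the one just after it. Over longer stretches this did not hold at the second site. Between the sites Wildtype had 46.1 joins per 100 bp, and in the 500 bp past the second site 34.6. These densities were 22.4 and 10.2 in CtIP_AA, 15.3 and 8 in CtIP_KO and 22.4 and 16 in XRCC4_KO. The part of the enzyme in these counts was not tested.

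Over the 26 bins of 100 bp from the primer to the border, join counts tended to be higher where AGCT motifs were more frequent. The body holds 187 such motifs. Spearman's rho was 0.66 for CtIP_AA, 0.63 for Wildtype, 0.50 for XRCC4_KO and 0.49 for CtIP_KO, as a description of bins that share the same DNA. The zones from 0 to 1000 bp held 9 motifs and the zone from 1500 to 2000 bp held 74. The fullest bin was not the one with the most motifs. The bin from 1800 to 1899 bp had 17 and took 4.00% of the Wildtype joins. The bin from 1500 to 1599 bp, with 14 motifs, took 14.5%.

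**Figure D2:**
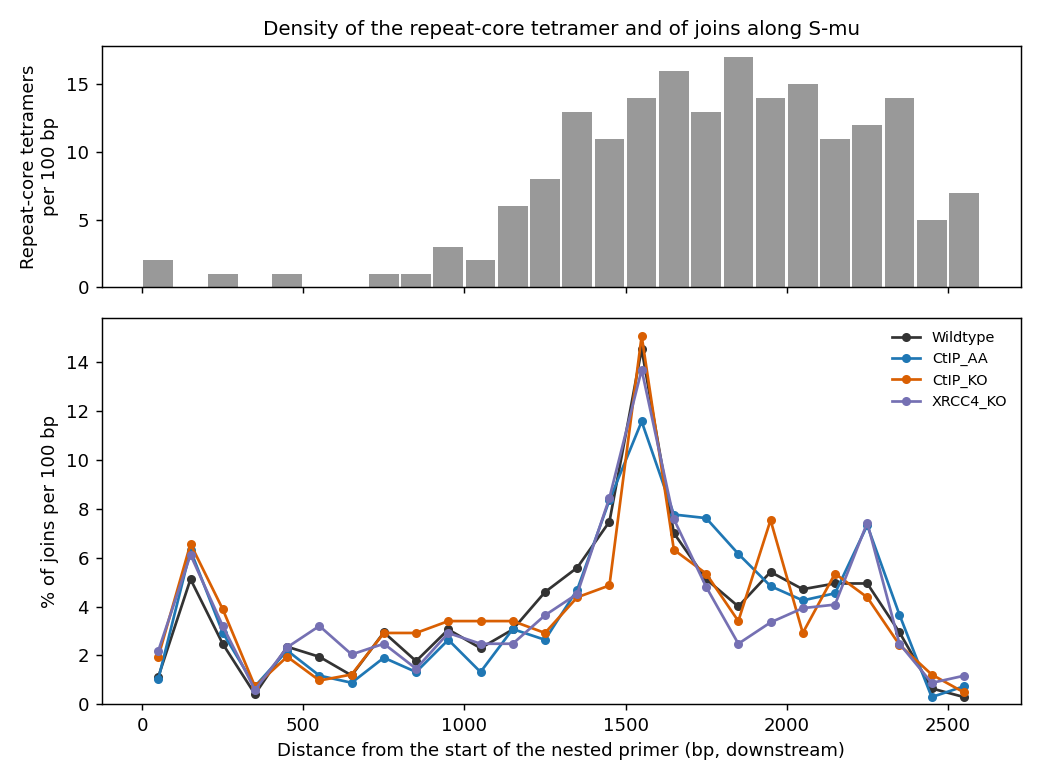
Number of AGCT tetramers per 100 bp (upper panel) and percent of each library's joins per 100 bp (lower panel, 1 line per library) against distance from the nested primer in bp. Joins peak at 1500 to 1599 bp in all 4 libraries, while the tetramer stays frequent out to 2400 bp.

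The fullest 100 bp, from 1500 to 1599 bp, was the same in each library. The bin at 1500 to 1549 bp took 7.24% of the Wildtype joins (6.11 to 8.58), 9.18% in XRCC4_KO (7.24 to 11.6), 10.2% in CtIP_KO (7.65 to 13.5) and 7.33% in CtIP_AA (5.61 to 9.54). The next bin, at 1550 to 1599 bp, took 7.30% in Wildtype (6.16 to 8.64). In the mutants it took less than the bin before it, 4.52% in XRCC4_KO (3.20 to 6.34), 4.87% in CtIP_KO (3.17 to 7.40) and 4.25% in CtIP_AA (2.98 to 6.04). The intervals of these neighbouring bins overlap in CtIP_AA and do not in XRCC4_KO and CtIP_KO. The bins were picked for their counts, so this is a description and not a test. Near the bait, the bin at 100 to 149 bp held 62 Wildtype joins (3.65%), 22 of XRCC4_KO (3.21%), 18 of CtIP_KO (4.38%) and 30 of CtIP_AA.

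Single positions held few joins each. Of the 1544 positions used in any library, 961 were seen in 1 library, 388 in 2, 157 in 3 and 38 in all 4. Positions with more than 1 join held 63.1% of the body joins in Wildtype, 48.6% in XRCC4_KO, 45.3% in CtIP_AA and 28.8% in CtIP_KO, and Wildtype is also the largest library. Over the body 56.5% of the 2605 positions had a join in some library. The 5 fullest positions of each library gave 19 distinct positions, between 1448 and 2280 bp from the primer, of which 10 lay at 1500 to 1599 bp and 7 had a join in every library.

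The fullest position of each library, ties going to the higher total over the 4 libraries, is printed below with 20 bases on each side of the join, on the minus strand of mm9, so that the prey begins at letter 21. Capitals mark complete AGCT motifs.
Wildtype, chr12:114663409: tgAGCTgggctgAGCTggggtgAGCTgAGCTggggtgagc
CtIP_AA, chr12:114663404: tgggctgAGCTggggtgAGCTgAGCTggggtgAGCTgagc
CtIP_KO, chr12:114663374: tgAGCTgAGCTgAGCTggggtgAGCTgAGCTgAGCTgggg
XRCC4_KO, chr12:114663274: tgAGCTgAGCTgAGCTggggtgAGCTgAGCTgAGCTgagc
At the first position Wildtype had 13 joins, CtIP_AA 4, CtIP_KO 2 and XRCC4_KO 3. The second held 6 Wildtype joins, 7 of CtIP_AA, 1 of CtIP_KO and 4 of XRCC4_KO. The third held 5, 4, 4 and 3 joins in the same order. The last held 7 joins of XRCC4_KO, 4 of Wildtype, 1 of CtIP_AA and 0 of CtIP_KO. In CtIP_KO, chr12:114663389 and chr12:114662964 also held 4 joins each. The 0 of 411 CtIP_KO joins at the last position allows a share of up to 0.730%. Chr12:114662782, 2127 bp from the primer, also held 7 joins in XRCC4_KO and 0 in each other library, and chr12:114663277 held 6 in CtIP_AA and 0 elsewhere.

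These positions sit in a tandem repeat, so a coordinate can be one of several equal placements. Between 1000 and 2500 bp, 62.3% of positions share their first 25 prey letters with another place in the body, and between 0 and 1000 bp 0% do. The first 25 letters of the 19 positions occur 3 to 20 times in the body. Over whole prey alignments, an exact second copy in the body was found for 7.99% of the blunt body joins in Wildtype, 11.7% in XRCC4_KO, 14.5% in CtIP_KO and 9.77% in CtIP_AA. Over all body joins listed it was 14.8% in CtIP_AA and 17.8% in CtIP_KO, and at 1000 to 2500 bp 18.5% and 23.6%. The sources used here do not give how the authors chose among equal placements.

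Prey ends began at some letters of the repeat more often than at others. Between 1000 and 2500 bp, TGAGC, a T followed by the first letters of the GAGCT unit, starts at 168 of 1500 positions (11.2%). It began the prey of 24.8% of the Wildtype joins there (22.5 to 27.2), 20.0% in XRCC4_KO (16.7 to 23.7), 27.0% in CtIP_KO (22.3 to 32.3) and 30.6% in CtIP_AA (26.8 to 34.6). Each interval lies above 11.2%. Of the 19 fullest positions, 14 begin with these letters. The letters were chosen after those positions had been seen, so the count and the shares describe the joins and do not back each other. The A of AGCT, at 11.4% of positions, began the prey of 24.0% of the XRCC4_KO joins there, more than TGAGC did. It began 12.8% in Wildtype, 13.0% in CtIP_KO and 13.5% in CtIP_AA.

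The TGAGC share differed by the class of the join in both libraries whose tables list every Sμ join. In CtIP_AA, TGAGC began 121 of 222 joins with an insertion (54.5%, 47.9 to 60.9), 22 of 102 blunt joins (21.6%, 14.7 to 30.5) and 18 of 203 joins with microhomology (8.87%, 5.68 to 13.6). In CtIP_KO it began 59 of 111 insertion joins (53.2%, 43.9 to 62.2), 15 of 51 blunt joins (29.4%, 18.7 to 43.0) and 7 of 136 microhomology joins (5.15%, 2.52 to 10.2). Insertion joins thus stood apart from microhomology joins in both libraries with no overlap of intervals. The A of AGCT began 22.2% of microhomology joins in CtIP_AA and 23.5% in CtIP_KO. It began 5.41% of insertion joins in each of them, and of blunt joins 14.7% in CtIP_AA and 1.96% in CtIP_KO. TGAGC was chosen after the fullest positions had been seen, so these shares are a description. Bases shared by both ends are counted to the prey as well as to the bait, which moves the prey start of a microhomology join, and the part of this and of the alignment was not tested.

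**Figure D3:**
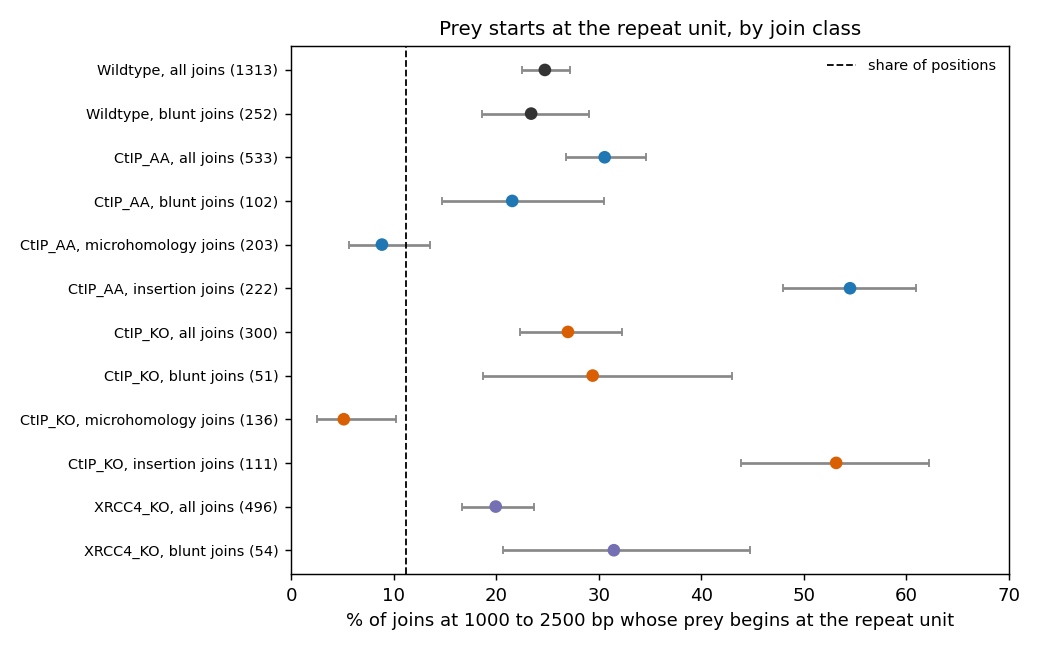
Percent of joins 1000 to 2500 bp from the primer whose prey begins at the repeat unit (x axis), by library and join class with the number of joins in brackets (y axis); bars are 95% Wilson intervals and the dashed line is the share of positions, 11.2%. Insertion joins reach 54.5% and 53.2%, microhomology joins 8.87% and 5.15%.

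Parts of reads show what such joins look like. The 3 below are blunt joins at named positions, with the retained bait in lower case and the first bases of the prey in capitals. None is shown for XRCC4_KO.
Wildtype, 1497 bp deleted: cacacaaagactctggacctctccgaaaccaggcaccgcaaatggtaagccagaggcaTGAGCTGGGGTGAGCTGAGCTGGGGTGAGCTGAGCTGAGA
CtIP_AA, 1447 bp deleted: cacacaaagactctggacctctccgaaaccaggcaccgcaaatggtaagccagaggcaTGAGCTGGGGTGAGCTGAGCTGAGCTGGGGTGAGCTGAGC
CtIP_KO, 1480 bp deleted: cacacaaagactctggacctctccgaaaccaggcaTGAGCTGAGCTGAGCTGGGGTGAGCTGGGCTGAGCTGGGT
The first keeps 58 bases of bait and joins chr12:114664852 to chr12:114663354. The second keeps the same 58 bases and joins chr12:114663404, and the third keeps 35 bases and joins chr12:114664875 to chr12:114663394. All 3 preys begin with the TGAGC letters, as do 14 of the 19 fullest positions, from which the examples were taken.

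The blunt tables pair both ends of a join in every library, so the deleted length can be read there. It had a median of 1399 bp over 355 blunt body joins of Wildtype and 1392.5 bp over 80 of XRCC4_KO. The median was 1278.5 bp over 86 joins of CtIP_KO and 1447 bp over 137 of CtIP_AA. The shortest deletion of a library was between 15 and 32 bp, and the longest between 2316 and 2498 bp. The bait retained had a median of 62 bases in Wildtype, 64 in XRCC4_KO, 60.5 in CtIP_KO and 66 in CtIP_AA. Most baits fell in a narrow range, from a shortest bait of 31 to 33 bases to a 95% point of 93 to 99.4 bases. The longest bait had 189 bases in Wildtype, 206 in XRCC4_KO, 202 in CtIP_KO and 215 in CtIP_AA. Baits reaching past the first AflII site numbered 5 of 364 in Wildtype, 3 of 83 in XRCC4_KO, 2 of 89 in CtIP_KO and 3 of 138 in CtIP_AA. The part of the enzyme and of the alignment in this range was not tested. Deletions under 500 bp made up 18.9% of blunt body joins in Wildtype. The share was 26.2% in XRCC4_KO (odds ratio 1.53, 95% interval 0.823 to 2.76, Fisher's exact adjusted p = 0.494), 22.1% in CtIP_KO (1.22, 0.646 to 2.22, exact adjusted p = 0.816) and 18.2% in CtIP_AA (0.960, 0.552 to 1.63, exact adjusted p = 1). None of the 3 differences passed the threshold of 0.05. Blunt joins had mostly different pairs of ends, 86.8% distinct in Wildtype and 92.7%, 98.8% and 93.8% in the mutants, and 0 to 5 pairs were common to any 2 libraries, with 0 reads of identical sequence.

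Closeness to the bait was tested as the share within 500 bp of the primer. CtIP_AA had 13.2% against 11.5% in Wildtype (odds ratio 1.17, 95% interval 0.886 to 1.54, Fisher's exact adjusted p = 0.264). CtIP_KO had 15.1% (1.37, 0.988 to 1.88, exact adjusted p = 0.0808) and XRCC4_KO 14.4% (1.30, 0.991 to 1.70, exact adjusted p = 0.0808). The point estimates were above 1 in the 3 mutants and none passed the test. The XRCC4_KO estimate depended on the border, which leaves out 16.0% of its minus-strand Sμ joins, all far from the bait. With joins below the border counted too, XRCC4_KO had 12.1% and Wildtype 11.2% (1.09, 0.835 to 1.42, exact adjusted p = 0.507). The odds ratios of CtIP_AA (1.18) and CtIP_KO (1.36) changed little.

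The body was then compared in windows of 500 bp counted up from the border, with p-values adjusted over these and the windows of Sγ1 and Sε. In CtIP_AA 29.6% of all 27 windows of the 3 switch regions passed the test, and 1 of 7 Sμ windows did. That window, chr12:114662805-114663304 and 1605 to 2104 bp from the primer, took 30.2% of the CtIP_AA body joins (208 of 689) and 438 of 1749 in Wildtype (odds ratio 1.29, 95% interval 1.06 to 1.58, Fisher's exact adjusted p = 0.0364). Its neighbours nearer the bait had lower point estimates, 0.814 for the window at 1105 to 1604 bp (exact adjusted p = 0.0884) and 0.712 for the one at 605 to 1104 bp (exact adjusted p = 0.0884). The call was lost when each coordinate was counted once (1.27, exact adjusted p = 0.132) and when windows were shifted by 250 bp (0 of 6), and windows of 1000 bp called 3 of 4. In CtIP_KO 0% of windows passed, in Sμ or elsewhere, and 0 of 7 Sμ windows had an unadjusted Fisher's exact p under 0.05. In XRCC4_KO 7.41% of windows passed and 0 of 7 in Sμ, where 3 had an unadjusted Fisher's exact p under 0.05.

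**Figure D4:**
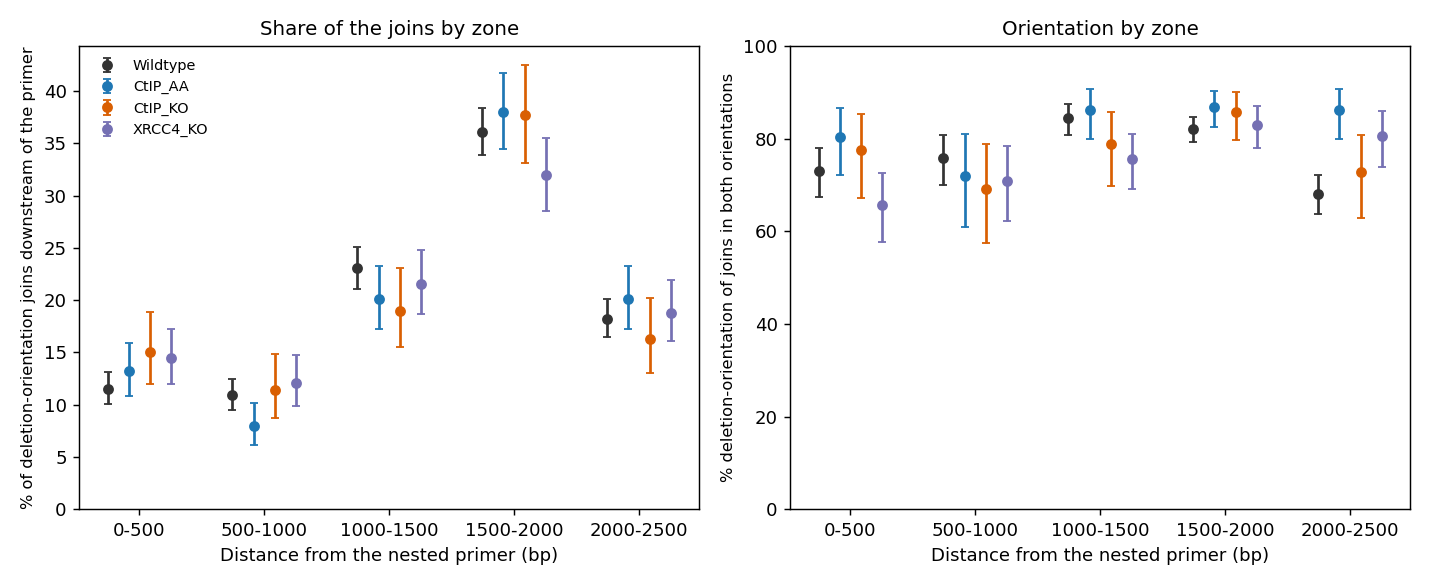
Left, percent of body joins downstream of the primer in each 500 bp of distance; right, percent of joins in deletion orientation among joins of both orientations at the same distances. Points are libraries and bars 95% Wilson intervals; the zone from 1500 to 2000 bp is the fullest in each library, and at 2000 to 2500 bp Wildtype has 68.1% in deletion orientation against 86.2% in CtIP_AA.

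Joins of the opposite, inverting orientation fell at the same coordinates, 531 for Wildtype, 280 for XRCC4_KO, 126 for CtIP_KO and 141 for CtIP_AA. Deletion orientation made up 76.7% of both in Wildtype and 83.0% in CtIP_AA, which was higher (odds ratio 1.48, 95% interval 1.20 to 1.84, Fisher's exact adjusted p = 0.000438). In CtIP_KO it was 77.1% (1.02, 0.815 to 1.29, exact adjusted p = 0.866). In XRCC4_KO it was 71.3%, which was lower (0.755, 0.635 to 0.898, exact adjusted p = 0.00186). With the Sμ joins below the border counted too, XRCC4_KO had 73.8% and Wildtype 77.1%, which missed the threshold (0.837, 0.708 to 0.990, exact adjusted p = 0.0504).

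Both differences were uneven along the body. At 2000 to 2500 bp Wildtype had 145 inverting joins at 83 positions, up to 8 at one of them, beside 309 in deletion orientation. CtIP_AA had 22 inverting joins there, CtIP_KO 25 and XRCC4_KO 31. In that zone alone, which was set apart after its values were seen, deletion orientation was 68.1% in Wildtype. It was 86.2% in CtIP_AA (odds ratio 2.92, 95% interval 1.76 to 5.02), 80.6% in XRCC4_KO (1.95, 1.24 to 3.14) and 72.8% in CtIP_KO (1.26, 0.747 to 2.17). With the zone left out, CtIP_AA no longer differed from Wildtype past the threshold (1.24, 0.986 to 1.58, exact adjusted p = 0.0955). For XRCC4_KO the odds ratio was then 0.611 (0.505 to 0.739), further below 1 than over the whole body. That shift follows from dropping a zone, picked for its values, where XRCC4_KO lay above Wildtype, so it is no check of the call. The CtIP_AA call thus depended on the far zone, and the XRCC4_KO difference had the opposite sign within it.

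The structure of the joins is deposited for all minus-strand Sμ joins, of which body joins are 84.0% in XRCC4_KO and 97.2% to 97.7% in the other libraries. Blunt joins made up 20.8% for Wildtype, 11.1% for XRCC4_KO, 20.4% for CtIP_KO and 19.9% for CtIP_AA. Microhomology joins, with at least 1 base shared by both ends, made up 44.8%, 64.2%, 47.5% and 42.1% in the same order. Joins with insertions of 1 to 30 bp made up 34.4%, 24.7%, 32.1% and 38.0%.

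XRCC4_KO differed from Wildtype in each class. Its blunt share was lower (odds ratio 0.474, 95% interval 0.367 to 0.608, Fisher's exact adjusted p = 1.95e-09), its microhomology share higher (2.21, 1.86 to 2.63, adjusted p = 1.55e-19) and its insertion share lower (0.627, 0.518 to 0.757, adjusted p = 1.83e-06). None of the 6 comparisons of a CtIP library with Wildtype passed the test, with exact adjusted p between 0.212 and 0.895. The lowest p was that of insertions in CtIP_AA, with an odds ratio of 1.17 (0.972 to 1.41). CtIP_AA set against CtIP_KO gave 1.30 for insertions (1.00 to 1.68, exact adjusted p = 0.129).

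Overlaps were also longer in XRCC4_KO. Among joins with 1 to 14 bp of microhomology, 28.6% had 4 bp or more, against 17.7% in Wildtype (odds ratio 1.86, 95% interval 1.42 to 2.44, Fisher's exact adjusted p = 9.28e-06). Overlaps of 2 or 3 bp made up 34.4% of minus-strand Sμ joins in XRCC4_KO and 19.6% in Wildtype, those of 4 or 5 bp 15.9% and 6.63%, while those of 1 bp made up 11.3% and 17.2%. The share with 4 bp or more was 13.5% in CtIP_KO (0.727, 0.451 to 1.14, exact adjusted p = 0.263) and 18.2% in CtIP_AA (1.04, 0.719 to 1.48, exact adjusted p = 0.859). At 6 bp or more, with 20 XRCC4_KO joins and 23 in Wildtype, no difference was detectable (1.33, exact adjusted p = 0.835).

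Joins inside Sμ carried insertions more often than deletional joins to Sγ1 and Sε of the same library. For insertions the Wildtype share was 34.4% against 25.8% (odds ratio 1.51, 95% interval 1.35 to 1.69, Fisher's exact adjusted p = 1.68e-11), 38.0% against 28.4% in CtIP_AA (1.55, 1.28 to 1.86, adjusted p = 1.66e-05), 32.1% against 25.4% in CtIP_KO (1.39, 1.10 to 1.76, adjusted p = 0.00811) and 24.7% against 18.0% in XRCC4_KO (1.49, 1.22 to 1.82, adjusted p = 0.000271). All 4 libraries differed in this direction. Against Sε alone the XRCC4_KO difference missed the threshold (1.30, exact adjusted p = 0.0954). Insertions of 3 bp or more made up 19.1% of minus-strand Sμ joins in Wildtype, beside 13.1% for Sγ1 and 11.6% for Sε.

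The other classes differed in some libraries. Blunt joins were fewer in Sμ in Wildtype (20.8% against 24.0%, exact adjusted p = 0.00811), CtIP_KO (20.4% against 25.9%, adjusted p = 0.0238) and XRCC4_KO (11.1% against 15.1%, adjusted p = 0.00811), and each of these calls was lost against Sγ1 alone. Microhomology joins were fewer in Wildtype (44.8% against 50.2%, exact adjusted p = 0.000204) and CtIP_AA (42.1% against 48.8%, adjusted p = 0.00529), and the CtIP_AA call was lost against Sε alone (odds ratio 0.830, exact adjusted p = 0.0974). They did not differ past the threshold in CtIP_KO (47.5% against 48.7%, exact adjusted p = 0.667) or XRCC4_KO (64.2% against 66.8%, adjusted p = 0.203). Against Sγ1 alone they were fewer in XRCC4_KO (0.796, exact adjusted p = 0.0263), and against Sε alone the odds ratio was 1.25 (exact adjusted p = 0.0954).

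**Figure D5:**
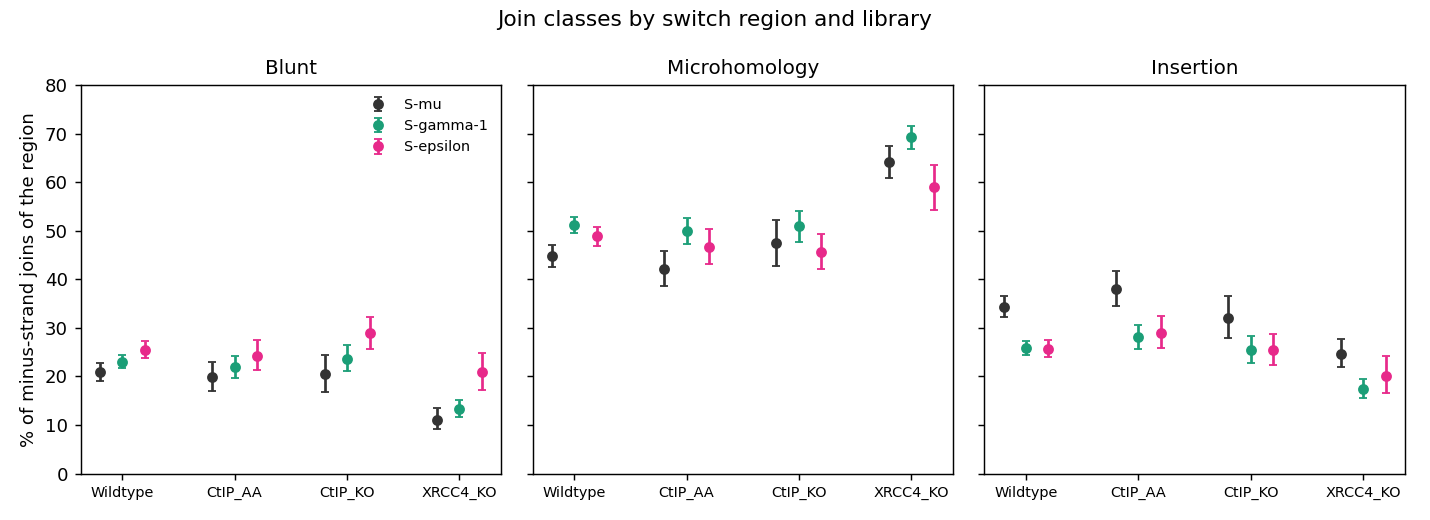
Percent of minus-strand joins that are blunt, have microhomology or have an insertion (3 panels; y axis, percent), by library (x axis) and switch region; bars are 95% Wilson intervals. Sμ has the highest insertion share in each library, and XRCC4_KO the highest microhomology share in each region.

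Within the body, the class mix could be followed by distance in CtIP_AA and CtIP_KO, whose tables list every Sμ join. Microhomology made up 48.9% of the CtIP_AA joins within 500 bp of the primer and 39.9% of those farther away (odds ratio 1.44, 95% interval 0.898 to 2.30, Fisher's exact adjusted p = 0.269), and for CtIP_KO 31 of 62 joins and 45.8% (1.18, 0.663 to 2.11, exact adjusted p = 0.582). Neither passed the test. Insertions, looked at after these values were seen, made up 26.7% within 500 bp and 40.4% beyond in CtIP_AA (0.536, 0.312 to 0.896), and for CtIP_KO 19.4% and 34.9% (0.449, 0.209 to 0.896), given as a description. The repeat, where most far joins lie, starts near 1000 bp, and its part in this was not tested. By zone, the insertion share of CtIP_AA was 26.7%, 25.9%, 39.7%, 43.3% and 42.3% from the nearest 500 bp to the farthest, and that of CtIP_KO was 19.4%, 19.1%, 40.8%, 35.5% and 37.3%. In both libraries the largest rise between neighbouring zones was from the second to the third.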

How the data were processed

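Genomic DNA of 4 libraries was sequenced on a MiSeq, per the labels' protocols, after linear amplification, nested PCR and AflII digestion. Bowtie2 and mm9 are named in the submitters' processing notes. The calling, filtering and deduplication of junctions are not given in the sources used here. Position lists deposited per library hold 1 mm9 coordinate for each join, and the deposited summaries give counts of junctions per overlap or insertion bin, set by the authors. Deposited junction tables pair bait and prey alignments. The table of every Sμ join was used for CtIP_AA and CtIP_KO only, and lines emptied in the tables (2 to 9 per table) were left out.

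Distance was counted from the nested primer start, the most frequent bait start. Shares have 95% Wilson intervals. Libraries were compared by two-sided Fisher's exact tests with conditional odds ratios and exact intervals, Benjamini-Hochberg adjusted within each result. A 500-bp window needed 20 joins in both libraries together, and its p was adjusted over all windows of the 3 switch regions in a comparison. The window test was also run on simulated libraries with independent joins, adjusted over the Sμ windows alone. That setting does not cover joins repeated at a coordinate or the adjustment over all 3 regions. Named positions are the 5 fullest per library. The border, members and lists were chosen with earlier results of these data known. Fisher's tests were run in scipy 1.17.1 under Python 3.11.15, tables were read with pandas 2.3.3, and figures were drawn with matplotlib 3.10.9.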

Additional observations from a re-analysis of the deposited data

How the results depend on the processing

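No paired analysis was possible because each genotype is 1 library, and no replicate could be left out. Odds ratios against Wildtype turned to the other side of 1, with none past the threshold, for CtIP_AA in the share within 1000 bp (0.928), blunt joins without insertions (1.01), microhomology of 6 bp or more (0.821) or over all minus-strand Sμ joins (0.965) and blunt deletions under 250 bp (1.04), and for CtIP_KO in blunt joins with 1-bp overlaps and insertions counted as blunt (1.03). For deletion orientation, moving the border in by 500 bp gave 1.27 in CtIP_AA, past no threshold, and 0.927 in CtIP_KO. All Sμ coordinates gave 0.837 in XRCC4_KO, past no threshold. The far zone, an alternative chosen after seeing the data, gave 1.24 in CtIP_AA and 0.948 in CtIP_KO when left out, and 1.95 in XRCC4_KO alone. Long microhomology in XRCC4_KO at 6 bp or more gave 1.33, below the threshold; a cut at 3 bp was not run, since the deposited bins have no edge there, and 2 bp was used instead.

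Against Sγ1 alone, blunt odds ratios were 0.880 in Wildtype, 0.827 in CtIP_KO and 0.808 in XRCC4_KO, no longer past the threshold, and microhomology in XRCC4_KO passed at 0.796. Against Sε alone, microhomology was 0.830 in CtIP_AA, 1.07 in CtIP_KO and 1.25 in XRCC4_KO, and insertions in XRCC4_KO 1.30, none past the threshold. In CtIP_AA, Sμ windows called numbered 0 with each coordinate counted once, 0 when shifted by 250 bp and 3 at 1000 bp. Counting each coordinate once also turned uncalled windows: CtIP_KO at 1605 to 2104 bp (1.02) and 105 to 604 bp (0.906), and XRCC4_KO at 2105 to 2604 bp (0.970), 1105 to 1604 bp (1.01) and 605 to 1104 bp (0.970). Body joins were 19.5% of Wildtype and 21.9% of XRCC4_KO joins in the 3 switch regions, and 16.9% in Wildtype, 19.6% in CtIP_AA and 17.1% in XRCC4_KO with each coordinate counted once. Direction and side of the threshold held in 14 of 15 alternatives for the share near the bait, 16 of 18 for join classes, 8 of 9 for blunt deletion size, 4 of 4 for microhomology by distance, 9 of 15 for deletion orientation, 16 of 24 for Sμ against the other regions and 6 of 9 for long microhomology. For window shares 63 of 72 held. These also include counts of called Sμ windows, which held when the number of calls did not change. In CtIP_KO and XRCC4_KO that number was 0 in every setting. The share of a library moved beyond its interval in 5 of 8. The causes of the changes were not tested. Depth limits the CtIP_KO comparisons most, with 424 body joins.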
